A study of Mus musculus with 30 samples.

Results

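Mitosis was followed here through 43 genes, chosen by name for their part in cell division, out of 55416 gene IDs counted in 30 libraries of fracture callus. The choice was made by names and roles, with earlier results of these data known. All 43 passed the filter on low counts in every comparison. By role they comprise 7 kinases, cyclins and the activator of the anaphase-promoting complex that drive entry into and exit from mitosis, 2 general markers of proliferation and the chromosome axis, 5 condensin subunits, 8 kinetochore proteins, 5 genes of the spindle checkpoint with separase, 4 of the chromosomal passenger complex, 7 spindle motors and assembly factors, and 5 of cytokinesis. The callus is the repair tissue that fills a fracture, and each library was made from the total RNA of the callus of 1 mouse after a non-stabilized closed fracture of the tibia. At 3-dpf the paper describes this sample as tibia dissected around the fracture site. P-Apex1KO mice carry 2 floxed *Apex1* alleles and *Prrx1*-Cre, which recombines them in limb bud mesenchyme, so that blood cells, endothelium and muscle of the callus keep the gene. WT littermates were Prrx1-Cre;Apex1 C/+, Apex1 C/C or Apex1 C/+ animals, and some of them therefore carried Cre and 1 floxed allele. The mice were 7-12 weeks old at fracture. There were 4 WT (2 female) and 4 P-Apex1KO mice (1 female) at 3-dpf, 5 WT (3 female) and 3 P-Apex1KO (1 female) at 6-dpf, 4 WT (2 female) and 3 P-Apex1KO (1 female) at 10-dpf, and 4 WT (1 female) and 3 P-Apex1KO (3 female) at 14-dpf, where dpf is days post fracture.

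A cell enters mitosis when CDK1, bound to a B-type cyclin, phosphorylates many proteins; condensin then folds the chromosomes, the kinetochores bind them to spindle microtubules, and the spindle checkpoint holds the cell until every chromosome is attached. The anaphase-promoting complex with CDC20 next destroys cyclin B and the inhibitor of separase, the sister chromatids part, and the central spindle and an actin ring divide the cell. Most of these genes are transcribed late in the cell cycle, in G2 and M, so their level in bulk RNA is commonly read as a sign of cycling cells. In a callus, dividing cells can be periosteal progenitors and young chondrocytes, and also erythroid and myeloid precursors of marrow, endothelium and lymphocytes. Fewer dividing cells and less mitotic RNA per cell cannot be told apart in these libraries.

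Late cell cycle genes share promoter elements, known as the cell cycle genes homology region (CHR, TTTGAA or TTCGAA, bound by the DREAM and MYBL2-MuvB complexes) and the CCAAT box (bound by NF-Y), and the members were read for them because they move together below. RefSeq promoter windows on GRCm38.p6, from 250 bases before to 50 bases after a gene's start, were matched for 36 of the 43 members. Searched on both strands, TTTGAA or TTCGAA occurred in the windows of 29 of the 36 (80.6%) and in 21.7% of the 27025 genes with a window. CCAAT occurred in 26 members (72.2% against 41.1%), and both kinds of element together in 24 (66.7% against 8.61%). At least 2 CCAAT boxes stood in 17 members (47.2% against 13.3%), whereas the E2F core TTCCCGC of G1/S genes occurred in 1 member (2.78% against 5.29%). A match is only a run of letters and was not tested as a binding site. Shown are the 250 bases before the start of the kinase, both B-type cyclins, the anaphase activator and polo-like kinase, the switch that drives mitosis, with every match in capitals, 5′ to 3′ on the strand of the gene:
Cdk1 (chr10:69352913-69353162, minus strand): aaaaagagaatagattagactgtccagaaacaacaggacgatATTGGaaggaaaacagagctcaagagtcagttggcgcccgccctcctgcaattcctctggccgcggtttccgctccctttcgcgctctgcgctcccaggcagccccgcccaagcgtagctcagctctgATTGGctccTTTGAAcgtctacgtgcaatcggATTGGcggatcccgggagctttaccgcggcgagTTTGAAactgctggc
Ccnb1 (chr13:100786487-100786736, minus strand): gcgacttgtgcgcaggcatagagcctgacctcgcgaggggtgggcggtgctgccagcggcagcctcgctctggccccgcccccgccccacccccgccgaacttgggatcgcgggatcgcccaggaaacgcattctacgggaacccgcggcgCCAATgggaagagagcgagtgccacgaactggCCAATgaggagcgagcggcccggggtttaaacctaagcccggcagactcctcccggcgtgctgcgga
Ccnb2 (chr9:70421555-70421804, minus strand): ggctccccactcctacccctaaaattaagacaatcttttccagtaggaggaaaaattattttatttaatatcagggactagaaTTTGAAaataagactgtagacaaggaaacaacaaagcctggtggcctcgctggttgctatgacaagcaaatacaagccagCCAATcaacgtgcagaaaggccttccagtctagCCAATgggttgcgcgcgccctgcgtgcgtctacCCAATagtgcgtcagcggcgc
Cdc20 (chr4:118437344-118437593, minus strand): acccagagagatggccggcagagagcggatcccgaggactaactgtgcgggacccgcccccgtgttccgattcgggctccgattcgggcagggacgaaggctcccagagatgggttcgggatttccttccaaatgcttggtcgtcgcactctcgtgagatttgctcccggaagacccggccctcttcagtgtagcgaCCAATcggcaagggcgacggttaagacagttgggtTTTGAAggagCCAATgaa
Plk1 (chr7:122159185-122159434, plus strand): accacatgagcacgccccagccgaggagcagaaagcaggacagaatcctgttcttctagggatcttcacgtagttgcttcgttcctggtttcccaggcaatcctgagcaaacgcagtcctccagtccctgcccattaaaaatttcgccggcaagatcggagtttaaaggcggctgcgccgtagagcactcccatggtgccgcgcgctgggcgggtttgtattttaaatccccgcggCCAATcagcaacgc

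The first CCAAT-type box of *Cdk1*, read as ATTGG, has its first base 208 bases before the start, the next 2 have theirs at 80 and 48 bases, and the TTTGAA runs begin at 71 and 15 bases. *Ccnb1* held 2 CCAAT boxes (99 and 67 bases before the start) and neither TTTGAA nor TTCGAA in its window. *Ccnb2* had 3 CCAAT boxes, at 87, 54 and 21 bases, a TTTGAA at 167 bases and a second CHR that begins at base 5 counted from the start, beyond the stretch shown. *Cdc20* carried a CHR at 18 bases between 2 CCAAT boxes at 53 and 8 bases. In *Plk1*, the single CCAAT began 14 bases before the start, and its CHR began at base 31 counted from it.

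*Apex1* RNA checked the labels. It read 29.99, 26.5, 33.1 and 31.7 CPM (counts per 1000000, on 1 scale for all 30 libraries) in WT and 18.4, 29.1, 27.6 and 34.6 CPM in the libraries labelled P-Apex1KO at 3-dpf, in the order of their replicate numbers, as are all such values below. Replicate 4 of the latter lay above every WT library of that time point. From 6-dpf on no P-Apex1KO library reached the WT range, with 15.1 and 15.9 CPM as their extremes at 6-dpf against 20.7 and 28.9 CPM in WT. The gap was narrow at 10-dpf, with 16.82 CPM in P-Apex1KO replicate 2 and 16.95 CPM in WT replicate 2. The log2 fold change was -0.67 ± 0.11 (adjusted p = 0.0071) at 6-dpf, -0.65 ± 0.13 (adjusted p = 0.0278) at 10-dpf and -0.29 ± 0.19 (adjusted p = 0.367) at 14-dpf. Reads counted on genes ran from 18334389 to 43111491 per library, so that the least abundant member, *Spc24*, still had 6.80 CPM in its lowest library. Below, the error after a log2 fold change is its standard error, and p-values come from the quasi-likelihood test of edgeR, adjusted by Benjamini-Hochberg across every gene tested and read at 0.05, with genotype and sex as terms. Osteoblast markers were present at every time point in both genotypes, where the 16 of them summed to between 15513 and 175403 CPM. The 18 cartilage markers reached at most 1112 CPM in a 3-dpf library and summed to at least 3410.1 CPM later. The part of existing bone in the osteoblast values was not tested.

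Mitotic transcripts were most abundant in the earliest callus. In WT, all 43 members had their highest group mean at 3-dpf and their lowest at 14-dpf, and for 33 of them each later time point had a lower mean than the one before. The 14-dpf mean of a member was between 0.388 and 0.687 of its 3-dpf mean (median 0.493). In P-Apex1KO, 40 members had their highest mean at 3-dpf and 14 had their lowest at 14-dpf, and the same ratio ran from 0.434 to 1.29 (median 0.727). The 3 exceptions to the early maximum were *Mki67*, *Cenpf* and *Nusap1*. These ratios are descriptions, since the sample names change between 6- and 10-dpf and no comparison across that step was tested. Per kilobase of the canonical transcript, the order in WT at 3-dpf began with *Top2a* (82.0 CPM per kb), *Mki67* (63.5) and *Ccna2* (62.5) and ended with *Cenpf* (10.2), *Ttk* (8.04) and *Espl1* (6.89). No test was made between genes, and neighbours in that order, such as *Mki67* and *Ccna2*, lay within the spread of their libraries.

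**Figure D1:**
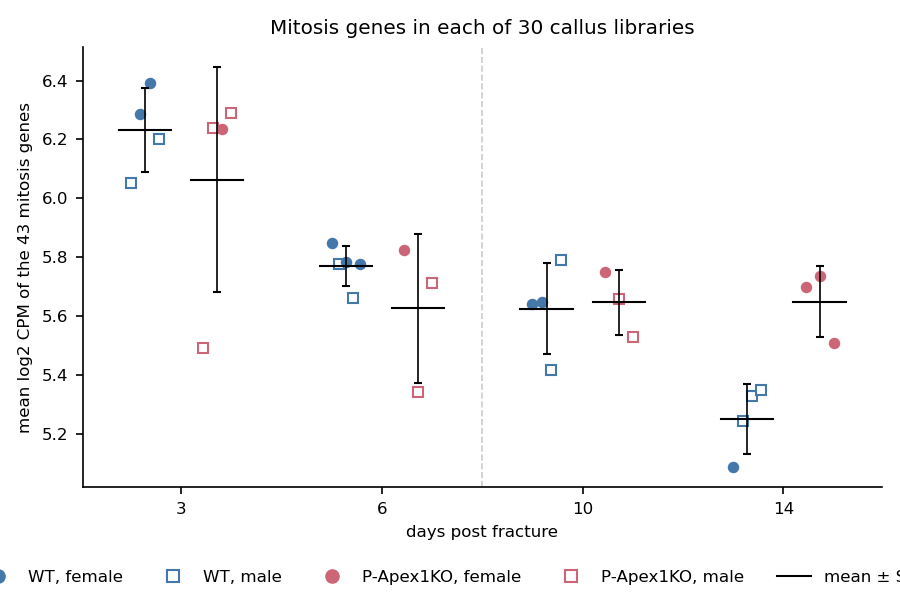
Mean log2 CPM of the 43 mitosis genes (vertical axis) in each library by days post fracture (horizontal axis), with WT in blue, P-Apex1KO in red, females as filled circles, males as open squares, and the mean ± SD of each group in black; the dashed line marks the step across which nothing was tested. Library 1 of the 3-dpf P-Apex1KO group lies at 5.49, far under the others of its group, and at 14-dpf the 3 P-Apex1KO libraries (5.51 to 5.73) lie above the 4 WT libraries (5.09 to 5.35).

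Between 3- and 6-dpf, the members came down in WT. Of the 43, 34 were lower at 6-dpf and 0 higher, with a median log2 change of -0.54, where 15.1% of all 20468 genes tested were lower and the median of all genes was -0.033. The changes ran from -0.78 for *Bub1*, a kinase of the spindle checkpoint, to -0.28 for *Mki67*, the antigen that coats mitotic chromosomes and marks cycling cells. All 5 checkpoint and separase genes and all 5 cytokinesis genes were among those lower, against 1 of 4 passenger complex genes (*Birc5*) and 3 of 5 condensin subunits (*Smc2*, *Ncapg* and *Ncaph*). In P-Apex1KO 16 members were lower at 6- than at 3-dpf (6.91% of all genes were lower), all 16 among the 34 of WT, with a median of -0.49. That count was 41 without replicate 1 of the 3-dpf libraries labelled P-Apex1KO and 3 without replicate 2 of P-Apex1KO at 6-dpf (*Bub1*, *Anln* and *Kif20a*). The change of the genotype difference from 3- to 6-dpf passed the test for 0 members (1.3% of all genes). 0 members had an unadjusted p under 0.05, and DESeq2 called 0.

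Between 10- and 14-dpf the WT level went down again. In WT, 28 members were lower at 14-dpf and 0 higher (4.92% of 19705 genes were lower), with a median log2 change of -0.39. The count was 6 without WT replicate 1 at 14-dpf, the only female of its group, 12 without WT replicate 4 at 10-dpf and 16 without WT replicate 2 at 14-dpf. In P-Apex1KO, 0 members passed in either direction (0.259% of all genes did), 0 had an unadjusted p under 0.05 and DESeq2 called 0, with a median of 0.032 and a range from -0.24 to 0.21. The difference between these 2 changes is the test of whether the genotype difference itself moved, and 0 of 43 members passed it (0.436% of all genes), although 25 had an unadjusted p under 0.05 and 41 lay above 0 (median 0.41). DESeq2 called 3 members in that test, *Ccnb2*, *Ccna2* and *Kif23*. For *Mki67* the change of the genotype difference was 0.68 ± 0.24 (adjusted p = 0.238). The step from 10- to 14-dpf thus passed the test in WT alone. The difference between the 2 genotypes in that step passed for no member in the edgeR fit with a sex term. Without that term edgeR called *Ccnb2* alone (0.64, adjusted p = 0.039).

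**Figure D2:**
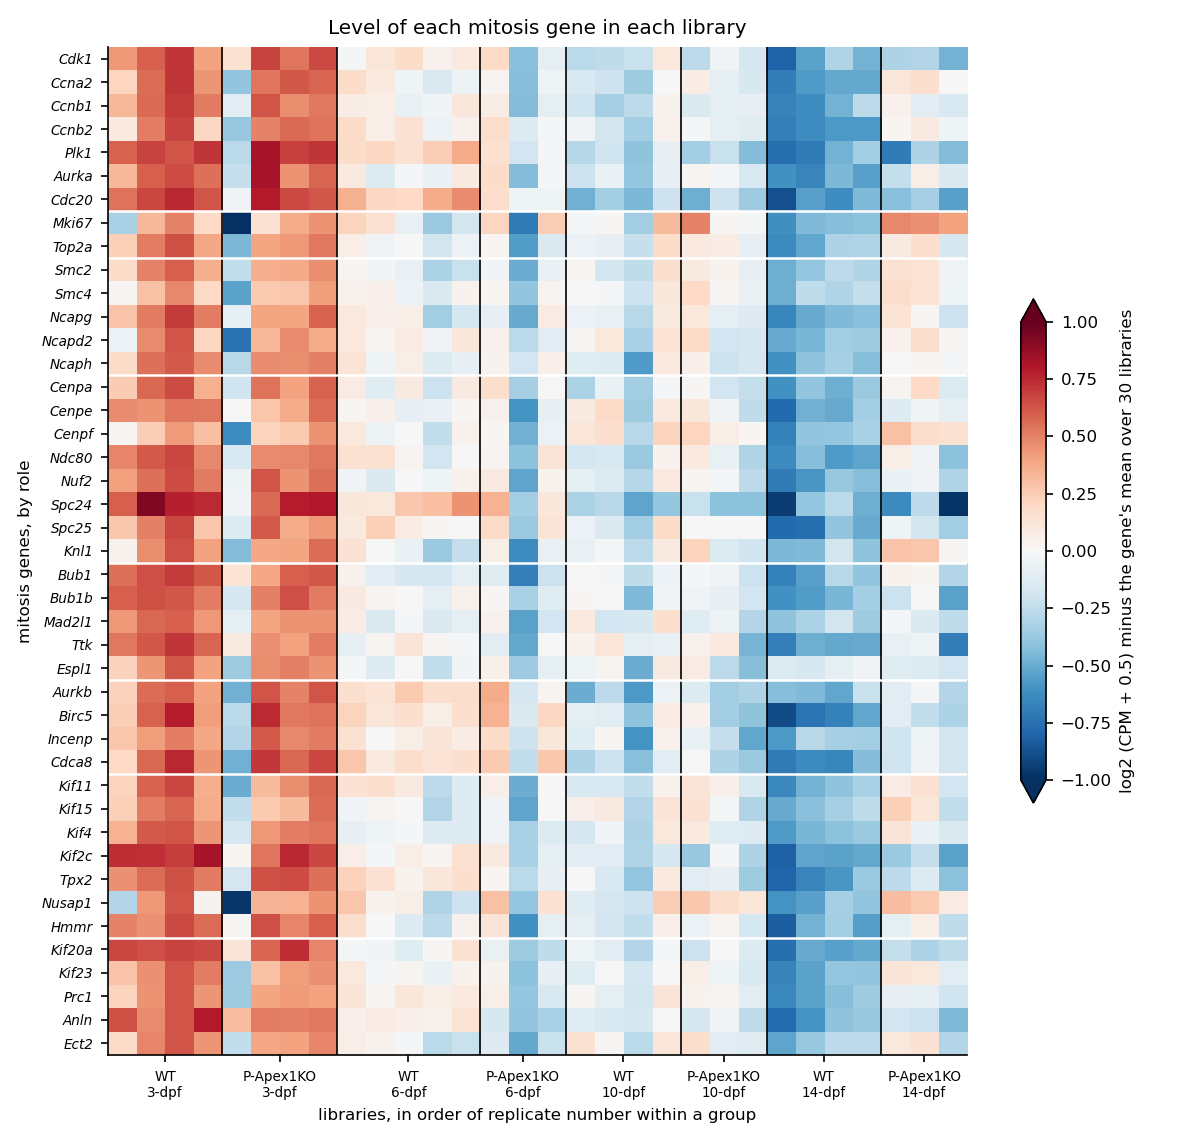
Level of each of the 43 mitosis genes (rows, in the 8 role groups separated by white lines) in each of the 30 libraries (columns, in replicate order within the groups separated by black lines), as log2 of CPM plus 0.5 minus the mean of the gene over all libraries. The pale to blue column in the 3-dpf P-Apex1KO block is replicate 1, which was lowest of its time point for 43 of 43 members, and the most evenly blue block is WT at 14-dpf.

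The widest genotype difference was at 14-dpf, when most mitotic transcripts had higher CPM in P-Apex1KO than in WT callus. CPM are shares of a library, and the amount of RNA per callus was not measured. All 43 members had a log2 fold change above 0, with a median of 0.61 where the median of all genes was 0.043. The test passed for 23 of them, all higher, where 4.28% of 20228 genes were higher and 7.04% lower, and DESeq2 called 31. In 29 members every P-Apex1KO library lay above every WT library, as did 18.5% of all genes, and the 23 that passed were all among the 29. The largest differences were those of *Mki67*, *Cenpf*, *Nusap1* and *Ccna2*, and the smallest that of *Espl1*. Every P-Apex1KO mouse at 14-dpf was female and only replicate 1 of WT was, so a fit with a sex term compares the P-Apex1KO females with that mouse. That library was the lowest of WT for 40 of 43 members. Without the sex term 33 members passed, the 23 among them, with a median of 0.47, and with that mouse left out as well, an alternative added after seeing the data, 29 passed, again with the 23 among them, and the median was 0.41. Leaving out 1 of the WT males brought the count to 8 without replicate 2, 9 without replicate 3 and 9 without replicate 4, with medians of 0.61, 0.605 and 0.61. With all 30 libraries in 1 model, where sex is estimated over every time point, 9 members passed and the median was 0.36. When the libraries were scaled by library size alone, the median of all genes moved to 0.31 and that of the members to 0.88. Unless another fit is named, the 14-dpf log2 fold changes and differences of single genes below come from the fit with a sex term. They set the P-Apex1KO females against WT replicate 1 and are not differences between group means.

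**Figure D3:**
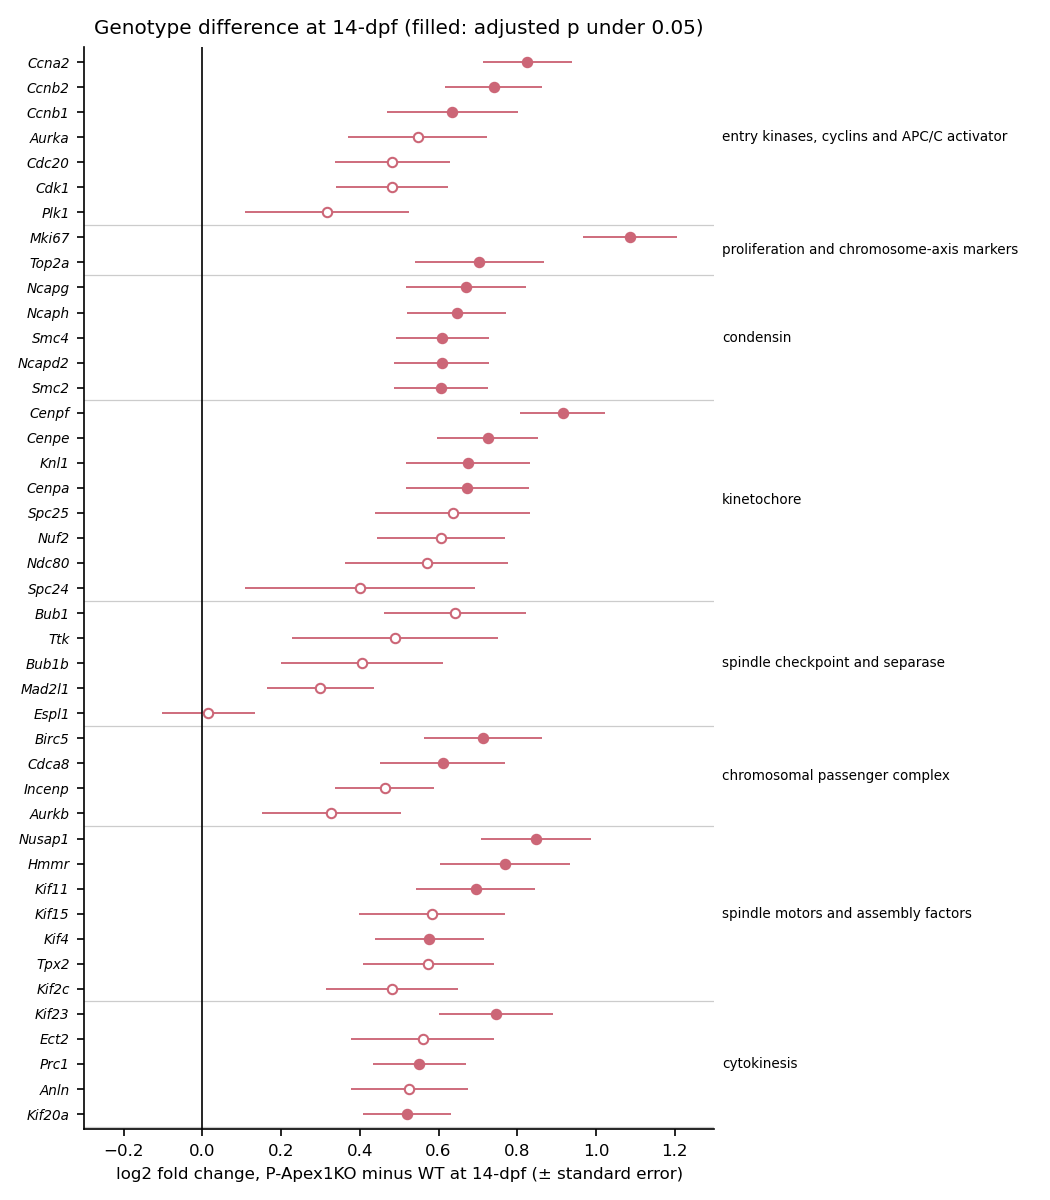
Log2 fold change of each of the 43 mitosis genes at 14-dpf, P-Apex1KO minus WT (horizontal axis, with standard errors from edgeR as bars), ordered by size within each role; filled points passed an adjusted p of 0.05. The 5 condensin subunits are all filled between 0.61 and 0.67, and the 5 checkpoint genes with separase are all open.

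Among the drivers of entry, the CDK1 kinase is the engine of mitosis, and its transcript came down with time in WT. *Cdk1* at 3-dpf read 90.2, 101, 110.1 and 88.4 CPM in WT and 74.2, 107, 97.2 and 106 CPM in the libraries labelled P-Apex1KO. *Cdk1* at 6-dpf stood at 66.2, 72.8, 75.9, 68.7 and 71.6 CPM in WT against 77.0, 49.9 and 62.8 CPM in P-Apex1KO. Replicate 1 at 3-dpf and replicate 2 at 6-dpf were the lowest of their time points, and at 6-dpf replicate 1 of P-Apex1KO was the highest of all. At 10-dpf, *Cdk1* gave 55.4, 55.9, 57.3 and 71.8 CPM in WT and 55.7, 65.2 and 59.5 CPM in P-Apex1KO. *Cdk1* at 14-dpf read 38.0, 46.0, 54.3 and 48.1 CPM in WT and 53.8, 54.6 and 48.0 CPM in P-Apex1KO. The groups overlapped at both, and the 14-dpf difference was 0.48 ± 0.14 (adjusted p = 0.0687). In WT, *Cdk1* changed by -0.50 ± 0.11 (adjusted p = 0.0033) from 3- to 6-dpf and by -0.45 ± 0.088 (adjusted p = 0.00592) from 10- to 14-dpf. *Ccnb1* encodes cyclin B1, the partner that switches CDK1 on (ENSMUSG00000041431, at 100915153 to 100923116 on chromosome 13 in GRCm39). At 3-dpf, *Ccnb1* gave 54.9, 64.7, 71.0 and 62.8 CPM in WT and 40.2, 67.6, 60.3 and 63.3 CPM in the libraries labelled P-Apex1KO. *Ccnb1* at 6-dpf read 46.1, 45.8, 41.5, 42.9 and 47.2 CPM in WT and 45.9, 32.1 and 41.0 CPM in P-Apex1KO. *Ccnb1* at 10-dpf stood at 37.9, 34.6, 36.4 and 44.6 CPM in WT against 39.5, 40.8 and 41.1 CPM in P-Apex1KO. From 3- to 10-dpf the genotypes overlapped, with the lowest value again in replicate 1 at 3-dpf and replicate 2 at 6-dpf. *Ccnb1* at 14-dpf read 27.2, 28.2, 31.3 and 36.4 CPM in WT and 45.0, 40.3 and 39.2 CPM in P-Apex1KO. All 3 P-Apex1KO libraries were above the WT maximum, and the difference of 0.64 ± 0.17 (adjusted p = 0.0484) passed narrowly. *Ccna2*, cyclin A2 of S phase and early mitosis, had the largest difference of this group. *Ccna2* at 14-dpf read 81.0, 88.6, 92.0 and 92.1 CPM in WT and 143, 148 and 132 CPM in P-Apex1KO. The highest WT library was far under the lowest P-Apex1KO library, which had 132 CPM. The log2 fold change in the fit with a sex term was 0.83 ± 0.11 (adjusted p = 0.00463).

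*Plk1*, the polo-like kinase that matures centrosomes and triggers CDK1 activation, passed between genotypes at no time point. *Plk1* at 3-dpf stood at 61.7, 65.5, 63.5 and 67.1 CPM in WT against 33.8, 72.8, 65.8 and 67.4 CPM in the libraries labelled P-Apex1KO. *Plk1* at 6-dpf read 46.4, 47.0, 45.5, 48.4 and 52.9 CPM in WT and 45.5, 35.7 and 40.3 CPM in P-Apex1KO. *Plk1* at 10-dpf read 33.3, 35.5, 30.7 and 38.4 CPM in WT and 32.2, 34.9 and 29.99 CPM in P-Apex1KO. At 6-dpf every P-Apex1KO library lay under every WT library (11.9% of all genes were lower without overlap at 6-dpf), replicate 1 by the narrowest margin, though the log2 fold change of -0.20 ± 0.089 (adjusted p = 0.199) did not pass. *Plk1* at 14-dpf read 23.9, 24.9, 29.3 and 32.1 CPM in WT and 24.9, 32.9 and 30.01 CPM in P-Apex1KO. Replicate 1 of P-Apex1KO shared the lower WT values at 14-dpf, and the difference was 0.32 ± 0.21 (adjusted p = 0.367). Of the remaining members of the group, *Ccnb2* passed at 14-dpf with 0.74 ± 0.12 (adjusted p = 0.00966), while *Aurka*, the kinase of the spindle poles, gave 0.55 ± 0.18 (adjusted p = 0.0888) and *Cdc20*, the activator of the anaphase-promoting complex, 0.48 ± 0.15 (adjusted p = 0.0745). *Ccnb2* was also the member with the largest positive log2 fold change at 3-dpf, 0.070 ± 0.20 (adjusted p = 0.973). At 3-dpf, *Ccnb2* gave 48.6, 65.2, 73.0 and 52.6 CPM in WT and 34.9, 64.3, 67.8 and 66.6 CPM in the libraries labelled P-Apex1KO. The groups overlapped, and without the sex term the log2 fold change was -0.044.

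The proliferation marker *Mki67* (ENSMUSG00000031004, at 135291513 to 135318299 on chromosome 7 in GRCm39) and the chromosome-axis enzyme *Top2a*, topoisomerase II alpha, both passed at 14-dpf. *Mki67* at 3-dpf read 451, 711, 797 and 648 CPM in WT and 262, 629, 732 and 771 CPM in the libraries labelled P-Apex1KO. *Mki67* at 6-dpf stood at 660.2, 628, 537, 438 and 497 CPM in WT against 656, 346 and 669.7 CPM in P-Apex1KO. At 10-dpf, *Mki67* gave 557, 570.4, 444 and 702 CPM in WT and 797, 572 and 559.9 CPM in P-Apex1KO. Up to 10-dpf the WT and P-Apex1KO ranges of *Mki67* overlapped, and replicate 1 of the 3-dpf libraries labelled P-Apex1KO held less than any other library of the series. *Mki67* at 14-dpf read 369, 416, 419.9 and 424 CPM in WT and 788, 775 and 746 CPM in P-Apex1KO. WT mice had a mean of 407 CPM with an SD of 25.8 over 4 mice, P-Apex1KO mice a mean of 769.9 CPM with an SD of 21.7 over 3 mice, with no overlap. The fit with a sex term sets the P-Apex1KO females against WT replicate 1, at 369 CPM. It gave a log2 fold change of 1.09 ± 0.12 (adjusted p = 0.00203). WT *Mki67* changed by -0.28 ± 0.27 (adjusted p = 0.472) from 3- to 6-dpf, among the 9 members that did not pass there, and by -0.47 ± 0.14 (adjusted p = 0.047) from 10- to 14-dpf. *Top2a* at 3-dpf stood at 371, 449, 489.8 and 412 CPM in WT against 230.2, 413, 424 and 453 CPM in the libraries labelled P-Apex1KO. At 6-dpf, *Top2a* gave 329, 308, 313, 277 and 301 CPM in WT and 319, 213 and 285 CPM in P-Apex1KO. In both time points 1 library of P-Apex1KO was far below the others. *Top2a* at 10-dpf read 303, 297, 267 and 356 CPM in WT and 337, 331 and 296 CPM in P-Apex1KO. *Top2a* at 14-dpf stood at 202, 219, 254 and 255 CPM in WT against 334, 353 and 281 CPM in P-Apex1KO. The ranges overlapped at 10-dpf and parted at 14-dpf, where the difference was 0.70 ± 0.16 (adjusted p = 0.032).

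**Figure D4:**
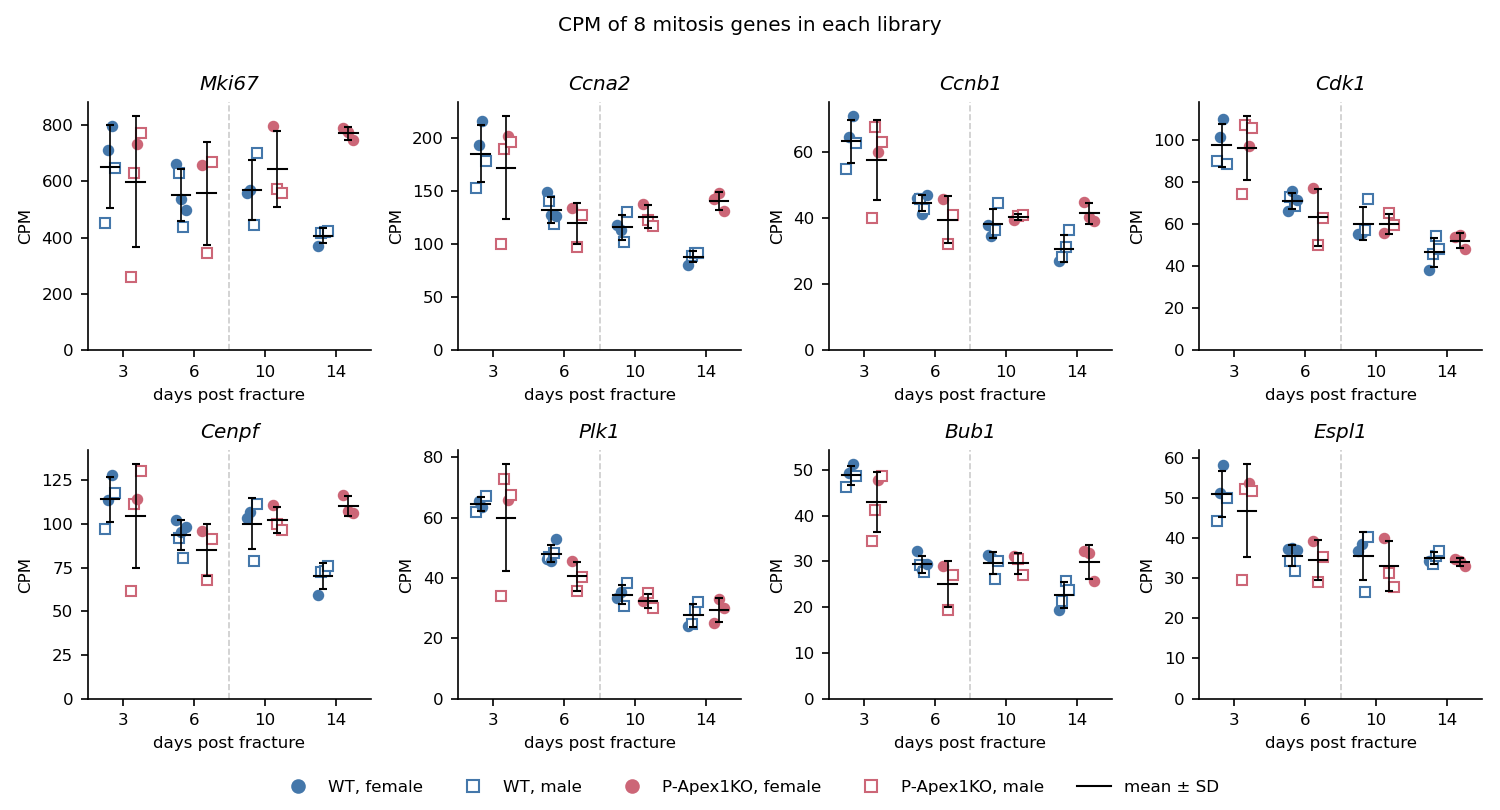
CPM (vertical axes, from 0) of 8 mitosis genes in each library by days post fracture, with symbols, means and SD as in the plot of mean log2 CPM by library. *Mki67*, *Ccna2* and *Cenpf* part by genotype at 14-dpf without overlap, *Bub1* and *Cdk1* overlap, and *Espl1* stands between 33.0 and 36.9 CPM in all 7 libraries of 14-dpf.

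Condensin, the ring complex that compacts mitotic chromosomes, passed in all 5 of its members at 14-dpf: *Smc2* and *Smc4*, the ATPase arms, and *Ncapg*, *Ncapd2* and *Ncaph*, the non-SMC subunits of condensin I. *Smc2* at 3-dpf read 129.7, 161, 172 and 146 CPM in WT and 95.8, 146, 148 and 158 CPM in the libraries labelled P-Apex1KO. *Smc2* at 6-dpf stood at 115, 112, 108, 91.5 and 97.8 CPM in WT against 112, 80.8 and 108 CPM in P-Apex1KO. At 10-dpf, *Smc2* gave 116, 100.3, 95.6 and 128 CPM in WT and 121, 117 and 108 CPM in P-Apex1KO. *Smc2* in P-Apex1KO lay inside or below the WT range at these time points. *Smc2* at 14-dpf read 81.0, 87.0, 94.8 and 92.2 CPM in WT and 127, 126 and 111 CPM in P-Apex1KO. With no overlap, the difference was 0.61 ± 0.12 (adjusted p = 0.0179). The remaining 4 subunits gave 0.61, 0.61, 0.65 and 0.67 for *Smc4*, *Ncapd2*, *Ncaph* and *Ncapg*, with adjusted p-values of 0.0166, 0.0182, 0.0171 and 0.029. In the step from 10- to 14-dpf in WT, *Smc2*, *Ncapg* and *Ncapd2* passed with -0.33, -0.44 and -0.39.

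The kinetochore group holds the centromeric histone *Cenpa*, the motor *Cenpe*, the matrix protein *Cenpf*, the 4 genes of the NDC80 complex that grips microtubules (*Ndc80*, *Nuf2*, *Spc24* and *Spc25*) and the scaffold *Knl1*. *Cenpa*, *Cenpe*, *Cenpf* and *Knl1* passed at 14-dpf, while none of the 4 NDC80 genes did. For *Ndc80*, *Nuf2* and *Spc25* every P-Apex1KO library nevertheless lay above every WT library, as for 18.5% of all genes, and *Spc24* overlapped. *Cenpa* at 3-dpf stood at 69.3, 87.0, 91.7 and 74.8 CPM in WT against 50.7, 85.2, 77.0 and 87.7 CPM in the libraries labelled P-Apex1KO. At 6-dpf, *Cenpa* gave 61.6, 53.6, 62.1, 50.1 and 62.1 CPM in WT and 65.9, 46.2 and 58.1 CPM in P-Apex1KO. *Cenpa* at 10-dpf read 46.6, 55.6, 45.6 and 57.5 CPM in WT and 58.8, 51.0 and 49.2 CPM in P-Apex1KO. For *Cenpa*, WT and P-Apex1KO overlapped at all 3. *Cenpa* at 14-dpf read 38.2, 44.1, 41.3 and 45.0 CPM in WT and 59.2, 67.1 and 52.9 CPM in P-Apex1KO. Every P-Apex1KO library exceeded the WT maximum, with a difference of 0.67 ± 0.16 (adjusted p = 0.032). *Cenpf* (ENSMUSG00000026605, at 189372752 to 189420315 on chromosome 1 in GRCm39) showed a mean of 70.2 CPM with an SD of 7.34 over 4 mice in WT, against a mean of 110.1 CPM with an SD of 5.76 over 3 mice in P-Apex1KO. The fit with a sex term sets the P-Apex1KO females against WT replicate 1, which had 59.4 CPM. Its log2 fold change for *Cenpf* was 0.91 ± 0.11 (adjusted p = 0.00256). *Ndc80* at 3-dpf read 28.1, 30.6, 31.7 and 27.9 CPM in WT and 17.8, 27.7, 27.8 and 28.9 CPM in the libraries labelled P-Apex1KO. *Ndc80* at 6-dpf read 22.1, 22.1, 20.3, 17.3 and 19.7 CPM in WT and 20.3, 14.8 and 21.8 CPM in P-Apex1KO. *Ndc80* at 10-dpf stood at 17.5, 17.8, 15.3 and 20.3 CPM in WT against 21.3, 18.8 and 16.0 CPM in P-Apex1KO. The P-Apex1KO values of *Ndc80* spread more widely than those of WT at 3- and 6-dpf, through 1 low library each. *Ndc80* at 14-dpf read 12.6, 14.7, 13.2 and 13.6 CPM in WT and 20.7, 19.4 and 14.8 CPM in P-Apex1KO. Replicate 3 of P-Apex1KO lay just above the highest WT library, and the difference was 0.57 ± 0.21 (adjusted p = 0.121). *Spc24* was the member with the least stable sign: 0.40 ± 0.29 (adjusted p = 0.415) with sex in the model, -0.059 without it and -0.20 with all libraries in 1 model.

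None of the spindle checkpoint genes, nor separase, passed at 14-dpf. The checkpoint kinases *Bub1* and *Ttk*, *Bub1b* (BUBR1) and *Mad2l1* (MAD2) form the signal that holds anaphase, and *Espl1* (separase, ENSMUSG00000058290, at 102204701 to 102233535 on chromosome 15 in GRCm39) cuts the cohesin ring when it ends. *Bub1* at 3-dpf read 46.1, 49.3, 51.2 and 48.6 CPM in WT and 34.5, 41.3, 47.7 and 48.6 CPM in the libraries labelled P-Apex1KO. *Bub1* at 6-dpf stood at 32.3, 29.2, 28.0, 27.7 and 29.4 CPM in WT against 28.9, 19.3 and 27.0 CPM in P-Apex1KO. At 10-dpf, *Bub1* gave 31.5, 30.9, 26.2 and 30.1 CPM in WT and 31.2, 30.6 and 26.9 CPM in P-Apex1KO. *Bub1* had the largest decrease of all members from 3- to 6-dpf in WT, -0.78 ± 0.11 (adjusted p = 6.70e-05). *Bub1* at 14-dpf read 19.5, 21.4, 25.8 and 23.8 CPM in WT and 32.1, 31.8 and 25.6 CPM in P-Apex1KO. The lowest P-Apex1KO value fell just short of the highest WT value, and the difference was 0.64 ± 0.18 (adjusted p = 0.0593). *Bub1b*, *Ttk* and *Mad2l1* gave 0.41, 0.49 and 0.30, with standard errors of 0.21, 0.26 and 0.14. *Ttk* was the member with the largest negative log2 fold change at 3-dpf, -0.22 ± 0.11 (adjusted p = 0.837). At 3-dpf, *Ttk* gave 26.8, 28.6, 30.6 and 27.8 CPM in WT and 19.6, 25.5, 24.6 and 26.5 CPM in the libraries labelled P-Apex1KO. It was the only member whose groups did not overlap at 3-dpf, where 1.7% of all genes were lower without overlap. *Espl1* at 14-dpf read 34.3, 33.7, 35.4 and 36.9 CPM in WT and 34.7, 34.3 and 33.0 CPM in P-Apex1KO. The groups of *Espl1* overlapped at 14-dpf, with 0.015 ± 0.12 (adjusted p = 0.95) and a log2 fold change of -0.20 with all libraries in 1 model.

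Of the chromosomal passenger complex, which corrects wrong attachments and then marks the cleavage plane, 2 of 4 members passed at 14-dpf. All 4 lay above 0. Its survivin and borealin subunits *Birc5* and *Cdca8* passed with 0.71 (adjusted p = 0.0219) and 0.61 (adjusted p = 0.0472). The scaffold *Incenp* (0.46, adjusted p = 0.0532) and the kinase *Aurkb* (0.33, adjusted p = 0.27) did not. For *Incenp* every P-Apex1KO library still lay above every WT library, as did 18.5% of all genes. *Birc5* at 3-dpf read 42.6, 54.1, 61.9 and 47.9 CPM in WT and 29.6, 60.4, 51.8 and 52.3 CPM in the libraries labelled P-Apex1KO. *Birc5* at 6-dpf stood at 41.8, 38.8, 40.0, 37.3 and 40.3 CPM in WT against 45.6, 32.3 and 41.4 CPM in P-Apex1KO. At 10-dpf, *Birc5* gave 33.3, 33.1, 27.0 and 37.9 CPM in WT and 36.8, 27.9 and 26.9 CPM in P-Apex1KO. At 6-dpf replicate 1 of P-Apex1KO had the highest *Birc5* of the time point and replicate 2 the lowest. *Birc5* at 14-dpf read 19.0, 21.2, 22.2 and 24.8 CPM in WT and 32.9, 30.1 and 28.7 CPM in P-Apex1KO. No P-Apex1KO library overlapped WT. *Aurkb* at 3-dpf stood at 33.4, 41.9, 43.2 and 37.8 CPM in WT against 20.2, 44.0, 40.1 and 44.1 CPM in the libraries labelled P-Apex1KO. *Aurkb* at 6-dpf read 31.7, 31.3, 34.2, 31.7 and 32.2 CPM in WT and 36.9, 25.3 and 29.0 CPM in P-Apex1KO. *Aurkb* at 10-dpf read 20.02, 23.6, 18.9 and 27.2 CPM in WT and 25.8, 22.2 and 22.8 CPM in P-Apex1KO. *Aurkb* overlapped between genotypes at each of these. At 14-dpf, *Aurkb* gave 21.0, 20.8, 19.6 and 24.3 CPM in WT and 26.3, 28.1 and 23.1 CPM in P-Apex1KO. Here too the ranges met, through replicate 4 of WT and replicate 3 of P-Apex1KO. In WT *Aurkb* was among 4 members, with *Incenp*, *Cdca8* and *Smc4*, that passed in neither the step from 3- to 6-dpf nor that from 10- to 14-dpf.

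Of the spindle motors and assembly factors 4 of 7 passed at 14-dpf, all higher. The kinesin-5 motor *Kif11* slides spindle poles apart, *Kif15* backs it up, *Kif4* and *Kif2c* act on chromosomes and microtubule ends, and *Tpx2*, *Nusap1* and *Hmmr* build and bundle spindle fibres. *Kif11* at 3-dpf read 131, 169, 179 and 144 CPM in WT and 79.2, 139.7, 155 and 167 CPM in the libraries labelled P-Apex1KO. *Kif11* at 6-dpf stood at 124, 125, 119, 93.2 and 103 CPM in WT against 117, 79.1 and 112 CPM in P-Apex1KO. *Kif11* at 10-dpf read 101, 101, 94.4 and 115 CPM in WT and 122, 116 and 101 CPM in P-Apex1KO. The genotypes overlapped for *Kif11* at each of these. *Kif11* at 14-dpf read 71.5, 80.5, 84.6 and 89.1 CPM in WT and 119, 124 and 97.9 CPM in P-Apex1KO. With every P-Apex1KO library above WT, the difference was 0.69 ± 0.15 (adjusted p = 0.0257). *Nusap1*, *Hmmr* and *Kif4* passed with 0.85, 0.77 and 0.58, and *Kif15*, *Tpx2* and *Kif2c* gave 0.58, 0.57 and 0.48 without passing. *Nusap1* also had the largest positive log2 fold change at 6-dpf, 0.14 ± 0.16 (adjusted p = 0.638), and at 10-dpf, 0.25 ± 0.12 (adjusted p = 0.251). At 6-dpf, *Nusap1* gave 77.6, 65.4, 66.6, 51.7 and 55.2 CPM in WT and 78.3, 48.7 and 70.5 CPM in P-Apex1KO. At 10-dpf, *Nusap1* gave 58.6, 56.7, 55.3 and 75.8 CPM in WT and 76.8, 72.2 and 69.4 CPM in P-Apex1KO. Its values overlapped between genotypes at both.

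Of the cytokinesis genes, *Prc1*, which bundles the central spindle, and the kinesins *Kif20a* and *Kif23* passed at 14-dpf, with 0.55, 0.52 and 0.75, whereas the actin-ring scaffold *Anln* (0.53, adjusted p = 0.0598) and *Ect2* (0.56, adjusted p = 0.0911) did not. *Prc1* at 3-dpf read 105, 122, 139 and 121 CPM in WT and 69.9, 118, 120.3 and 118 CPM in the libraries labelled P-Apex1KO. *Prc1* at 6-dpf read 97.8, 90.7, 96.6, 93.1 and 95.7 CPM in WT and 93.3, 68.3 and 80.6 CPM in P-Apex1KO. *Prc1* at 10-dpf stood at 90.1, 83.9, 78.8 and 98.0 CPM in WT against 92.0, 90.8 and 82.6 CPM in P-Apex1KO. Replicate 1 at 3-dpf and replicate 2 at 6-dpf again had the lowest *Prc1* of their time points. *Prc1* at 14-dpf read 57.0, 61.8, 66.7 and 69.7 CPM in WT and 84.5, 83.8 and 77.9 CPM in P-Apex1KO. The WT maximum lay below all 3 P-Apex1KO libraries, and the difference was 0.55 ± 0.12 (adjusted p = 0.0242).

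At 6-dpf few members differed between genotypes, at a time when cartilage markers did. The 18 cartilage markers were all lower in P-Apex1KO, with a median log2 fold change of -2.95 and summed levels of 3410.1 to 6478 CPM against 37607 to 66755 CPM in WT. Of the 43 mitosis genes 1 was lower and 0 higher (5.61% of 20260 genes were lower), with a median of -0.057, 34 below 0 and 3 with an unadjusted p under 0.05. The member that passed was *Anln*. *Anln* at 6-dpf read 80.4, 82.2, 80.6, 79.9 and 85.3 CPM in WT and 69.3, 58.9 and 61.9 CPM in P-Apex1KO. All 3 P-Apex1KO libraries were below WT, with -0.32 ± 0.075 (adjusted p = 0.0266). The call was lost in 5 of the 8 fits that left out 1 mouse, with adjusted p-values from edgeR of 0.091, 0.051, 0.072 and 0.064 without WT replicates 2, 3, 4 and 5 and 0.064 without P-Apex1KO replicate 1. *Plk1*, *Cdc20* and *Tpx2* were the other members without overlap. In all, 4 of 43 members were lower without overlap, where 11.9% of all genes were. Without replicate 2 of P-Apex1KO, which was the lowest of its time point for 42 of 43 members, the median of the members was 0.040. It was 0.0015 without WT replicate 2, and 0.13 with library size alone as the scale, where that of all genes was 0.20. Replicate 2 also had the most skeletal muscle RNA of its time point: the 22 muscle markers summed to 34994 CPM there, to 16220.3 and 24351 CPM in the other P-Apex1KO libraries and to 7276 to 13266 CPM in WT. The part of muscle RNA in these values was not tested.

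At 3-dpf 0 members passed (0.0% of 19866 genes did), 0 had an unadjusted p under 0.05 and DESeq2 called 0. Over all genes 1216 had an unadjusted p under 0.05, and DESeq2 called 3 lower and 82 higher. The median was -0.089, with 38 of 43 below 0, and it rested on 1 library. Replicate 1 of the libraries labelled P-Apex1KO had the lowest value of the time point for 43 of 43 members, and without it the median was 0.028 and 14 members were below 0. That library held 649.6 CPM of the 17 erythroid precursor markers measured, where the other 7 held from 749 to 3725 CPM. It held 1109.6 CPM of the 16 neutrophil precursor markers against 3714 to 10155 CPM, and 28285 CPM of muscle markers against 8691 to 20569 CPM. Among WT, replicate 1 had the lowest value of its group for 34 members, and it was also the lowest WT library for erythroid and neutrophil precursor markers. The part of these cells in the mitosis values was not tested. Without replicate 4 of the libraries labelled P-Apex1KO, whose *Apex1* was above every WT library, the median was -0.17 with 43 of 43 below 0, and 0 passed.

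At 10-dpf 0 members passed as well (6.46% of 18910 genes did), 0 had an unadjusted p under 0.05 and DESeq2 called 0. The median was 0.057, 12 were below 0, and no member was without overlap between the genotypes, where 19.3% of all genes were. The largest negative log2 fold change was that of *Mad2l1*, -0.13 ± 0.12 (adjusted p = 0.569). *Mad2l1* at 10-dpf read 47.9, 38.97, 40.0 and 49.9 CPM in WT and 41.0, 43.2 and 36.5 CPM in P-Apex1KO. The P-Apex1KO values of *Mad2l1* lay inside the WT range except for replicate 3, which was the lowest. The median changed sign to -0.024 without WT replicate 3, the lowest WT library for 39 members, and to -0.034 without P-Apex1KO replicate 1. Without WT replicate 4, 2 members passed, both higher: *Nusap1* with 0.40 and *Mki67* with 0.44.

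Other genes of the cell cycle gave the setting at 14-dpf, where 4.28% of all genes were higher. Of 60 further mitotic genes, 16 were higher and 0 lower, with a median log2 fold change of 0.53. Those with the smallest p-values were *Dlgap5*, a spindle fibre protein, with 0.88 ± 0.15 (adjusted p = 0.0115), *Aspm*, of the spindle poles, with 0.64 ± 0.12 (adjusted p = 0.0141), and *Depdc1b*, which couples adhesion to mitotic entry, with 1.08 ± 0.21 (adjusted p = 0.0165). *Dlgap5* at 14-dpf read 19.9, 24.1, 23.0 and 23.7 CPM in WT and 36.6, 39.4 and 31.9 CPM in P-Apex1KO. The groups were far apart. Of 38 genes of G1/S and S phase, 14 were higher and 0 lower, with a median of 0.52. They were led by the transcription factor *E2f2* with 1.15 ± 0.16 (adjusted p = 0.00451), the ribonucleotide reductase subunit *Rrm2* with 0.82 ± 0.12 (adjusted p = 0.00593), and the replicative helicase subunit *Mcm6* with 0.60 ± 0.11 (adjusted p = 0.0122). *E2f2* at 14-dpf stood at 78.2, 84.4, 85.6 and 83.0 CPM in WT against 150.5, 189.8 and 169 CPM in P-Apex1KO. No P-Apex1KO library of *E2f2* came near the WT range.

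Of 20 regulators of mitotic transcription, 3 were higher and 0 lower at 14-dpf, where 4.28% of all genes were higher, and the median was 0.19. The 3 were *Tfdp2*, the dimer partner of E2F, with 0.79 ± 0.12 (adjusted p = 0.0069), the repressor *E2f8* with 0.58 ± 0.12 (adjusted p = 0.0244) and the retinoblastoma gene *Rb1* with 0.58 ± 0.14 (adjusted p = 0.0384). *Mybl2*, the MuvB partner at CHR sites, gave 0.48 ± 0.15 (adjusted p = 0.0781). At 14-dpf, *Mybl2* gave 15.4, 14.6, 15.2 and 16.5 CPM in WT and 21.4, 22.0 and 20.03 CPM in P-Apex1KO. Its groups did not overlap. *Foxm1*, the forkhead activator of G2/M genes, gave 0.19 ± 0.20 (adjusted p = 0.583). *Foxm1* at 14-dpf read 29.1, 31.8, 35.5 and 37.3 CPM in WT and 32.0, 38.4 and 27.3 CPM in P-Apex1KO. Here the P-Apex1KO range enclosed all 4 WT values. At 3-, 6- and 10-dpf *Foxm1* gave -0.069, -0.16 and -0.26, and *Mybl2* 0.063, 0.030 and 0.028, and none of the 6 values passed. Of the 16 genes listed with the anaphase-promoting complex, 1 was higher at 14-dpf, its inhibitor *Fbxo5* (EMI1) with 0.69 ± 0.15 (adjusted p = 0.0232), and the median was -0.11. *Anapc2*, the cullin of its catalytic core, gave -0.25 ± 0.12 (adjusted p = 0.21) and *Fzr1*, the G1 activator, 0.32 ± 0.17 (adjusted p = 0.251). Of the 36 members with a promoter window, the 29 with TTTGAA or TTCGAA in it had a median of 0.61 at 14-dpf and 15 passed. The 7 with neither run in the window had a median of 0.65 and 5 passed. Other forms of the CHR were not searched.

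At the earlier time points the same lists gave the following calls. At 6-dpf 2 of the 60 further mitotic genes were higher, where 1075 of 20260 genes were. They were *Psrc1* with 0.88 ± 0.10 (adjusted p = 0.00154) and *Ckap2* with 0.36 ± 0.10 (adjusted p = 0.0471), both of which bind spindle microtubules. In the same comparison 3 of 16 anaphase-promoting complex genes were lower, where 5.61% of all genes were. These were the scaffold subunits *Cdc16*, *Cdc23* and *Anapc4* with -0.41, -0.30 and -0.31. At 3-dpf 0 genes of the 4 lists passed (0.0% of all genes did) and 1 of the further mitotic genes had an unadjusted p under 0.05. At 10-dpf 0 passed again (6.46% of all genes did), while 3 of the further mitotic genes, 2 of G1/S and S phase and 4 of the regulators had an unadjusted p under 0.05.

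Markers of several other cell types were also higher in P-Apex1KO at 14-dpf, where 4.28% of all genes were higher and 7.04% lower. Of the erythroid precursor markers, 12 of 17 tested were higher in P-Apex1KO (median 1.01), and their summed level was 3463 to 3934 CPM against 1998 to 2108 CPM in WT, with no marker at 0. Of the neutrophil precursor markers 10 of 16 were higher (median 1.19), at 3173 to 4052 CPM against 1479.9 to 2271 CPM. The 43 mitosis genes summed to 3086 to 3496 CPM in P-Apex1KO and 2068 to 2465 CPM in WT. B cell markers had a median of 1.94 with 0 of 15 passing, at 481 to 1233 against 317 to 392 CPM, and T and NK cell markers 1.15 with 1 of 16 higher, at 70.8 to 149.9 against 48.3 to 51.5 CPM. Of the macrophage markers 9 of 15 were higher and 2 lower (median 0.98), at 2502 to 2791 against 2070.4 to 2139 CPM. Some of these lists differed earlier, when the mitosis genes had medians of -0.057 (6-dpf) and 0.057 (10-dpf). At 6-dpf 10 of 15 macrophage, 10 of 16 T and NK cell and 6 of 15 B cell markers were higher and 0 lower. There, 1075 of 20260 genes were higher. At 10-dpf 7 macrophage markers were higher and 1 lower, and 1 of 16 neutrophil precursor markers was higher (median 0.95). Of all 18910 genes, 570 were higher there.

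Markers of bone cells went the other way at 14-dpf, where 7.04% of all genes were lower and 4.28% higher. Osteoblast markers were lower for 11 of 16 (median -1.94), at 33508 to 35924 CPM against 129307 to 175403 CPM, osteoclast markers for 12 of 12 (median -2.24), at 2161 to 3786 against 13378 to 15134 CPM, and endothelial markers for 7 of 14 (median -0.53), at 843 to 967 against 1278 to 1381 CPM. Cartilage markers were higher for 16 of 18 and lower for 2 (median 2.94), in the fit that compares P-Apex1KO females with WT replicate 1. Their summed levels overlapped, at 6617 to 7753 and 4844 to 9929 CPM. WT replicate 1 was the lowest of all at 4844 CPM, and the other WT libraries, at 8979, 9929 and 8031 CPM, lay above every P-Apex1KO library. Mesenchymal progenitor markers had 4 of 15 lower and 0 higher, at 3562 to 4837 against 7438 to 8367 CPM, though their median was 0.43. Muscle markers had a median of 0.87 with 0 of 22 passing, at 12882 to 39247 CPM against 12851 CPM in WT replicate 1 and 3645 to 4492 CPM in the other WT libraries. The part of each cell type in the mitosis difference was not tested, and bulk RNA does not show which cells carried the mitotic transcripts.

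**Figure D5:**
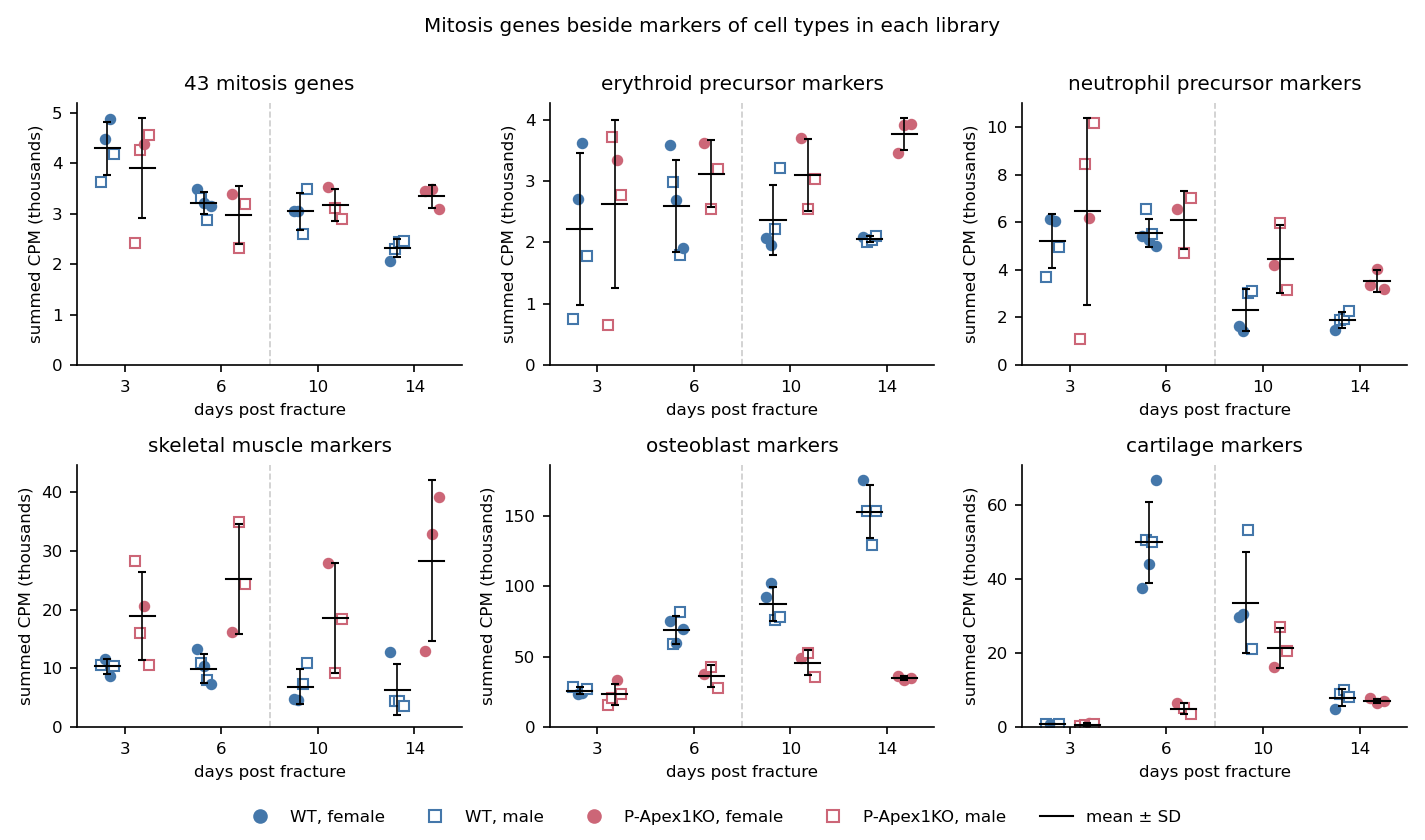
Summed CPM (vertical axes, from 0, scaled as written on them) of the 43 mitosis genes and of markers of 5 cell types in each library by days post fracture, with symbols, means and SD as in the plot of mean log2 CPM by library. At 14-dpf the mitosis genes and the erythroid and neutrophil precursor markers lie higher in P-Apex1KO than in WT without overlap, and the osteoblast markers lower.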

How the data were processed

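Total RNA of fracture callus was sequenced from 30 mice in 8 groups of 3 to 5, after depletion of ribosomal and beta globin RNA, with an Illumina stranded total RNA kit. The authors demultiplexed with bcl2fastq 2.20, aligned read pairs to mm39 with STAR 2.7.0d and counted uniquely mapped reads per gene with featureCounts, strand-aware, on Ensembl release 104. The deposited values are raw counts per gene, with no normalization, and the 30 libraries held 18334389 to 43111491 counts. The authors' own tests used DESeq2 1.32.0. Their comparisons were not used here.

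The counts were fitted with edgeR 4.0.16 in R 4.3.3 (filterByExpr, TMM scaling, robust quasi-likelihood), 1 model of genotype and sex for each time point and 1 model of 4 groups and sex for each step from 3- to 6- and from 10- to 14-dpf. P-values were adjusted across every gene in a fit and read at 0.05. No test spanned 6- and 10-dpf, between which the sample names change. CPM were set on 1 TMM scale. No 2 libraries agreed within sampling noise. Each library was a separate mouse. Gene positions and transcript lengths came from GENCODE M39 on GRCm39, and 54749 of 55416 IDs matched. Processed pseudogenes of *Ccnb1*, *Ccnb2* and *Kif4* had 135, 56 and 0 counts over all libraries. The fits were tested on simulated data.

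The mitosis genes and the lists of cell cycle genes and cell type markers were chosen with earlier results of these data known. Genes named with values were 13 members chosen for their roles, the members with the largest change in each direction at each time point, up to 3 genes with the smallest p of each cell cycle list, *Foxm1* and *Mybl2*. Per-library values of *Ccna2*, *Dlgap5* and *E2f2* were added after they were seen. Alternatives were DESeq2 1.42.0, its size factors, library size alone, no filter, at least 10 counts in every library, no sex term, a replicate block, all 30 libraries in 1 model and leaving out each mouse.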

Additional observations from a re-analysis of the deposited data

Results flagged for a closer look

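In groups of 4 or 5 mice, a library was singled out where its gap to the nearest other, as a share of the range of the group, was above Dixon's critical value. Chance flags about 1 in 20 groups, and 21 of 215 groups examined for the members were flagged. Most of these were 1 library, replicate 1 of the 3-dpf mice labelled P-Apex1KO. It was low for *Ccna2* (0.882), *Ccnb2* (0.896), *Ncapd2* (0.841), *Ncaph* (0.929), *Ndc80* (0.894), *Mad2l1* (0.88), *Espl1* (0.915), *Aurkb* (0.833), *Cdca8* (0.838), *Tpx2* (0.847), *Nusap1* (0.88), *Prc1* (0.952), *Anln* (0.874) and *Ect2* (0.836). Its mean log2 CPM of the 43 members was 5.49 where the other 3 libraries of its group had 6.24 to 6.29, a gap of 0.934 of the range.

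At 14-dpf, WT replicate 1 was low for *Mki67* (0.857), *Ttk* (0.845), *Kif2c* (0.905) and *Kif20a* (0.83), and its summed CPM of skeletal muscle markers, 12851 against 3645 to 4492 in the other 3 WT libraries, was high by the same measure (0.908). At 10-dpf, WT replicate 4 was high for *Cdk1* (0.887) and *Nusap1* (0.838), and WT replicate 3 was low for *Bub1b* (0.88). Causes of these deviations were not tested.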

How the results depend on the processing

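The 23 members higher at 14-dpf became 35 with library size alone, where the median was 0.88, and 9 with all 30 libraries in 1 model, where it was 0.36. Without the sex term the median was 0.47. Leaving out 1 mouse gave 8 to 29 members and medians of 0.41 to 0.67. Leaving out WT replicate 1 was possible only without the sex term. At 6-dpf library size alone gave 0 members and a median of 0.13, and leaving out 1 mouse 0 to 1 and -0.17 to 0.040. For 3-dpf the ranges were 0 to 0 and -0.17 to 0.028, and for 10-dpf 0 to 2 and -0.034 to 0.15.

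In WT, the change from 3- to 6-dpf had a median of -0.78 with library size alone, and 25 to 41 members and medians of -0.59 to -0.47 with 1 mouse left out. In P-Apex1KO the 16 members became 25 by DESeq2 and 28 in the model of all libraries, with 3 to 41 members and medians of -0.60 to -0.34 when 1 mouse was left out. The change of the genotype difference over that step had a median of 0.29 with library size alone and of -0.091 to 0.15, with 0 members, with 1 mouse left out. From 10- to 14-dpf, WT gave 13 members in the model of all libraries, and 6 to 33 and -0.48 to -0.32 with 1 mouse left out. P-Apex1KO gave -0.062 in the model of all libraries and -0.036 to 0.17, with 0 members, with 1 mouse left out. The change of the genotype difference gave 3 members by DESeq2, 1 without the sex term, a median of 0.57 with library size alone, and 0 members and 0.26 to 0.56 with 1 mouse left out.

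Same-numbered mice of the 2 genotypes did not deviate together at every time point (r from 0.0669 to 0.406 at 3-dpf, -0.0938 to 0.0758 at 6-dpf, -0.207 to 0.22 at 10-dpf and -0.259 to -0.078 at 14-dpf), so the numbers do not pair them. A replicate block in place of sex gave 19 members and a median of 0.48 at 14-dpf, 0 members at 6-dpf and 6 from 3- to 6-dpf in P-Apex1KO.

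Signs turned for *Ccnb2* at 3-dpf (-0.044 without sex, -0.070 with the replicate block, and -0.032 to 0.21 with 1 mouse left out) and for *Nusap1* at 6-dpf (-0.10 with the block). At 14-dpf they turned for *Spc24* (-0.059 without sex, -0.067 with the block, -0.18 without WT replicate 1, -0.20 with all libraries), *Espl1* (-0.0037, -0.0099 and -0.20 without sex, without WT replicate 1 and with all libraries), *Foxm1* (-0.054 without WT replicate 1, -0.12 with all libraries) and *Anapc2* (0.020 with library size alone), and for *Aurkb* from 10- to 14-dpf in WT (0.077 without WT 10-dpf replicate 4). Of all values of single genes under the alternatives, 1344 kept direction and side of the threshold, 193 lost the call, 75 gained it and 16 turned. The cause of these changes was not tested. With 3 to 5 mice a group, smaller differences than those called could be missed.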
